A study of Mus musculus with 3 samples.

Results

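Cluster 7 is 1 of 8 clusters taken as the inhibitory set among the nuclei of the mouse olfactory bulb (OB), and its label is Calb2 Grem1 type. Its members are the nuclei that the deposited nucleus table assigns to that cluster, 1401 of 31703 in all and of 20745 in that set (clusters 0, 1, 3, 6, 7, 8, 10 and 12), which leaves out smaller clusters with GABA genes. Single-nucleus RNA counts were collected from 3 adult C57Bl/6 mice, which form a single group with 1 library each. In each mouse retroAAV-CAG-H2B-GFP, a virus taken up by axon terminals that encodes a nuclear green fluorescent protein behind the broadly active CAG promoter, was delivered to piriform cortex and the anterior olfactory nucleus by injection. Nuclei were sorted for GFP and for the DNA dye DRAQ5, and nuclei of cells without an axon to those areas were recovered as well, so that shares of nuclei are shares of the sorted nuclei and not of the tissue. There were no uninjected mice and no treatment, and every comparison is between clusters of the same animals.

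Inhibitory neurons of the OB release GABA and shape the output of the projection neurons (mitral and tufted cells) within the glomerular layer and from the deeper granule cell layer. Calb2 encodes calretinin, a calcium-binding protein used to mark a class of these interneurons around the glomeruli and some of those in the granule cell layer. Of the other label genes, Nppa encodes atrial natriuretic peptide, whose receptor makes cyclic GMP (cGMP), Pde5a encodes a phosphodiesterase that breaks cGMP down, and Grem1 encodes gremlin 1, a secreted protein that binds and blocks bone morphogenetic proteins (BMPs).

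The upstream bases of the 2 label genes whose start had no annotated exon in this window are shown because they are the sequence next to the start of genes by which the cluster is known. They run 5′ to 3′ on the strand of the gene over the 250 bases before the start of transcription, from RefSeq (GRCm38.p6). Grem1 is read from chr2:113758649-113758898 on the minus strand and Nppa from chr4:148000472-148000721 on the plus strand, and capitals mark matches to the motifs searched.
Grem1: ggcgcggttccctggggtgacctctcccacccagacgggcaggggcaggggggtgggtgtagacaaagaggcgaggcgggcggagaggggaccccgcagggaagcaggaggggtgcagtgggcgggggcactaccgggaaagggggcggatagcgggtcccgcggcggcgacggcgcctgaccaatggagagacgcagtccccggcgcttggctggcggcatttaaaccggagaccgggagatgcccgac
Nppa: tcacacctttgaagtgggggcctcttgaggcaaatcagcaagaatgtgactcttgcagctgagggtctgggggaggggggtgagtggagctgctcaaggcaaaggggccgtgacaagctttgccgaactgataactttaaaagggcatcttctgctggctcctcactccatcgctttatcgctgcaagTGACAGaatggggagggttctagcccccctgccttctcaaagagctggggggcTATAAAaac
The motifs, searched on both strands, were TAATTA (a core bound by many homeodomain factors), CAGCAGG (a ZIC core), TGACAG (a MEIS core) and TATAAA (the TATA box). Nppa holds TGACAG and TATAAA, and Grem1 holds none of the 4. Of the 17 genes made up of the label genes and the leading genes named below, 10 had a promoter in the table, with 12 promoters between them. The counts that follow are of genes, whereas the percentages are of promoters. None of these 10 holds TAATTA, which 4.84% of 32851 promoters hold. CAGCAGG occurs in 2 of the 10 (Apold1 and Prkcq) against 8.44% of promoters, TGACAG in 2 (Kcnmb2 and Nppa) against 15.9%, and TATAAA in 2 (Apold1 and Nppa) against 12.4%. A match describes the letters of the window and is not evidence of binding.

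Cluster 7 held 254, 904 and 243 nuclei in mice 1, 2 and 3. It made up 6.89% of the inhibitory nuclei of mouse 1 (exact Clopper-Pearson 95% interval 6.10 to 7.76%), 6.29% of those of mouse 2 (5.90 to 6.70%) and 9.003% of those of mouse 3 (7.95 to 10.1%). The mean was 7.40% ± 1.42 (SD, n = 3), with the highest share in mouse 3, whose interval does not overlap those of the other mice. These intervals cover counting error only. No barcode of cluster 7 was shared between mice, against 82 shared over all nuclei.

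Nuclei of cluster 7 were the shallowest of the inhibitory clusters, with a median of 3757, 4505 and 5062 unique molecular identifiers (UMIs, counted RNA molecules) per nucleus in mice 1, 2 and 3. Pooled over mice the median was 4498 UMIs, against 5778 to 9736.5 in the other inhibitory clusters. After thinning each nucleus to 2000 UMIs at random, cluster 7 had medians of 1085.5, 1151 and 1067 genes. The summed nuclei of cluster 7 gave libraries of 1129463, 5417918 and 1397421 UMIs, and levels below are UMIs per 1000000 UMIs of such a library (CPM). The correlation of log2 levels across 14780 genes, which are not independent replicates, was 0.919 to 0.942 between the cluster 7 libraries.

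The 4 label genes were higher in every cluster 7 library than in any of the 21 libraries of the other inhibitory clusters. They were used to name the cluster, so that their levels are a description and carry no test. Calb2 (chr8:110137502-110168210, minus strand) stood at 3007, 2046 and 2287 CPM in mice 1, 2 and 3, against 23.7 to 330 in the other 21 libraries. Within the inhibitory set cluster 0 came next, with 301 CPM, and outside it cluster 15 reached 1024 CPM, so that a high level of Calb2 was not particular to cluster 7.

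Grem1 (chr2:113746164-113758646, minus strand) stood at 172, 130 and 170 CPM, against 0 to 6.67 in the other inhibitory libraries. Nppa (chr4:148000722-148002079, plus strand) stood at 336, 182 and 160 CPM, against 0 to 37.7, and the upper end of that range came from cluster 6, the next cluster with a mean of 26.2 CPM. Pde5a (chr3:122728947-122859374, plus strand) stood at 556, 399 and 641 CPM, against 0.977 to 203. Cluster 6 was again next for Pde5a, with 183 CPM, so that 2 of the 4 label genes had a second, lower site of expression in that cluster. Mouse 2 had the lowest level of Calb2, Grem1 and Pde5a among the cluster 7 libraries.

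**Figure D1:**
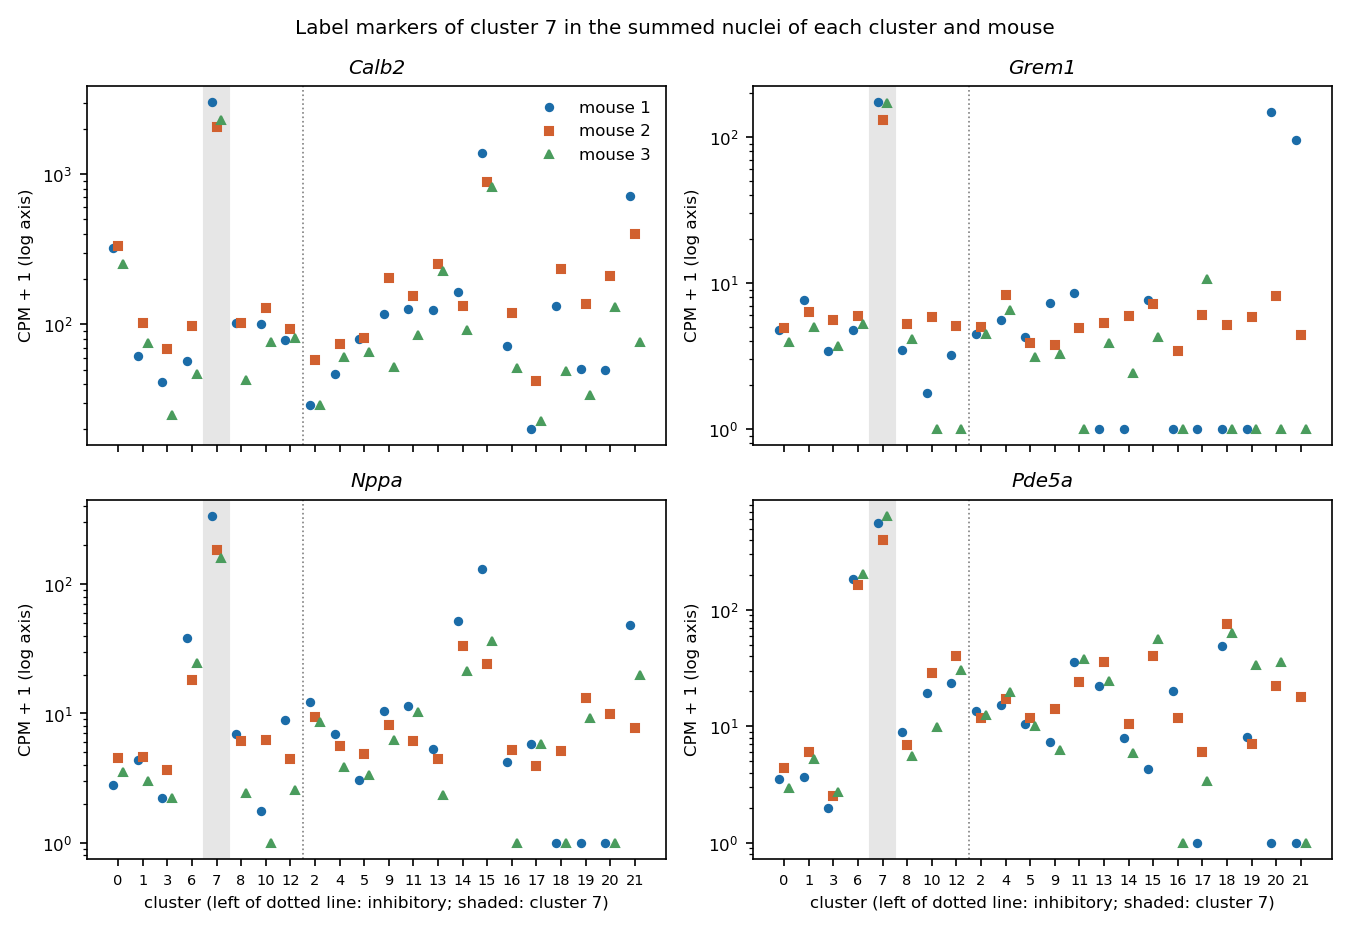
Levels of Calb2, Grem1, Nppa and Pde5a (CPM + 1, log axis) in the summed nuclei of each of the 22 clusters, with 1 point per mouse. In the shaded column, cluster 7, all 3 mice lie above every library of the other inhibitory clusters (left of the dotted line), whereas Calb2 is also high in cluster 15 (1024 CPM) and Pde5a in cluster 6 (183 CPM).

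Not every nucleus of the cluster carried each label gene. At 2000 UMIs per nucleus, which left out 9 of the 1401 nuclei, a Calb2 UMI was found in 75.6% ± 1.78 of cluster 7 nuclei (SD over 3 mice) and a Pde5a UMI in 58.5% ± 5.35. Nppa was found in 24.6% ± 5.48 and Grem1 in 19.4% ± 1.48. Without thinning the shares were 86.3%, 77.1%, 37.7% and 31.4% in the same order. Glial nuclei are given for comparison, and there the pooled thinned shares were 19.2% for Calb2, 2.10% for Pde5a, 1.01% for Nppa and 0.450% for Grem1. Before thinning, the median depth was 4506.5 UMIs in these cluster 7 nuclei and 5212 in the glial ones. In the other inhibitory clusters the pooled shares were 18.2%, 2.54%, 1.00% and 0.730%, and for all 4 genes their 95% intervals overlapped those of the glial nuclei. Cluster 6 within that pool stood higher, with Pde5a in 23.8% ± 2.75 and Nppa in 5.37% ± 1.26 of its nuclei (SD over 3 mice). In cluster 3 the thinned means were 7.63% ± 3.64 for Calb2, 0.184% ± 0.167 for Pde5a and 0.312% ± 0.0824 for Nppa. Grem1 was found in 0.441% ± 0.207 there. The glial means over mice were 15.2% for Calb2, 2.09% for Pde5a, 1.07% for Nppa and 0.329% for Grem1. Cluster 3 nuclei were deeper before thinning, with a median of 9736.5 UMIs. The part of free RNA in these shares was not tested.

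Among the 1392 thinned nuclei, 3.74% held all 4 label genes, 17.0% held 3, 38.1% held 2, 32.6% held 1 and 8.55% held none. Nppa was found in 36.8% of nuclei with a Grem1 UMI (95% interval 31.0 to 42.9%) and in 21.1% of nuclei without (18.8 to 23.6%). Most of these nuclei are from mouse 2, with 36.05% (28.9 to 43.7%) against 20.6% (17.7 to 23.7%). The shares were 45.3% (31.6 to 59.6%) against 26.6% (20.6 to 33.3%) in mouse 1 and 29.5% (16.8 to 45.2%) against 17.6% (12.6 to 23.6%) in mouse 3, where the intervals overlap in both mice. Pde5a was found in 59.5% of nuclei with an Nppa UMI (54.1 to 64.8%) and in 54.5% of those without (51.4 to 57.5%), intervals that overlap. With a Grem1 UMI the Pde5a share was 63.6% (57.5 to 69.3%), and without it 53.8% (50.8 to 56.7%). These pooled intervals do not overlap, but within each mouse they did. Nuclei of a mouse share their library, and the intervals describe counting error in the pooled nuclei.

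**Figure D2:**
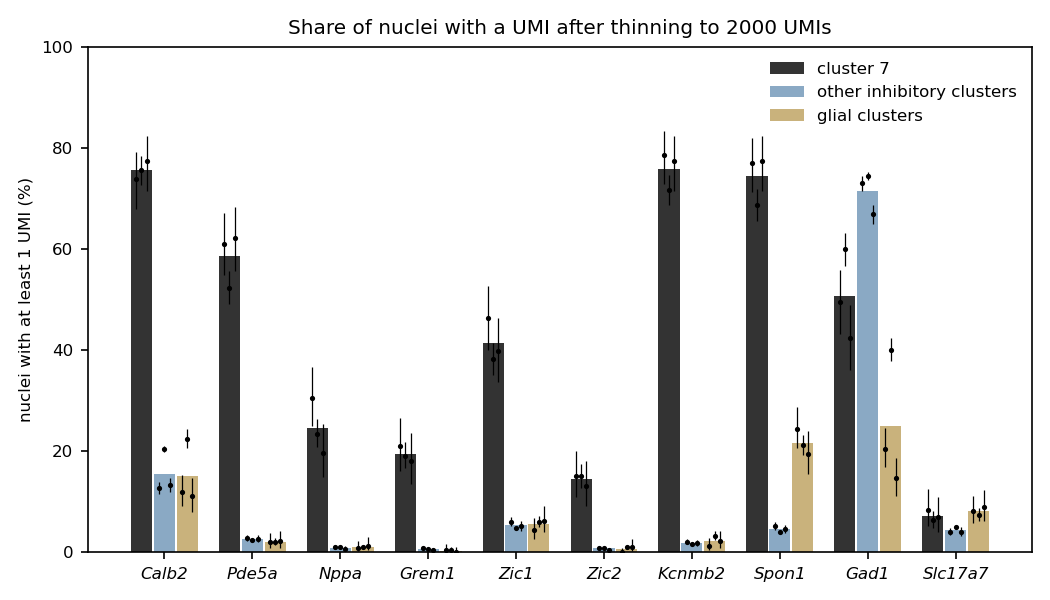
Share of nuclei with at least 1 UMI of each gene after thinning every nucleus to 2000 UMIs, in cluster 7, the other inhibitory clusters and the glial clusters. Bars are means over 3 mice, and points with lines are single mice with exact 95% intervals. In cluster 7 the means run from 75.6% for Calb2 to 19.4% for Grem1 among the label genes, and Gad1 is lower there than in the other inhibitory clusters (50.7% against 71.5%).

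The GABA genes Gad1 and Slc32a1 were read against their level in glial nuclei. Gad1, which encodes a GABA-synthesising enzyme, stood at 467, 590 and 367 CPM in cluster 7, and Slc32a1, the vesicular GABA transporter, at 189, 203 and 171 CPM. After thinning, a Gad1 UMI was found in 50.7% ± 8.84 of cluster 7 nuclei and in 25.1% ± 13.3 of glial nuclei (SD over 3 mice), and in each mouse the 95% interval of cluster 7 lay above that of the glial nuclei. In cluster 9, one of the glial clusters, the means were 247 CPM for Gad1 and 67.5 CPM for Slc32a1. Clusters 15, 17 and 21, which the inhibitory set leaves out, had means of 692, 453 and 943 CPM of Gad1, against 475 CPM in cluster 7. Slc17a7, the vesicular glutamate transporter of projection neurons, stood at 40.7, 29.5 and 39.4 CPM, and its thinned share of nuclei, 6.82%, stood beside 7.76% in glial nuclei and a mean of 2.64% in cluster 3. Of the markers of another glomerular type, Calb1 and Foxp2, Calb1 stood at 1.77, 5.91 and 2.15 CPM and Foxp2 at 16.8, 104 and 15.03 CPM, with mouse 2 well above the others. Th, the rate-limiting enzyme of dopamine synthesis, stood at 23.0, 26.2 and 6.44 CPM.

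To ask which genes set cluster 7 apart, UMI sums of 24 libraries (8 clusters in 3 mice) were fitted in edgeR, and the log2 level of cluster 7 was compared with the mean of the log2 levels of the other 7 clusters (the difference is the log2 fold change, log2FC). A gene was called where its Benjamini-Hochberg adjusted p was below 0.05, with a change of more than 1 on the log2 scale, up or down. The clusters had been formed from the same counts, so that these calls give the size of a difference and its spread between mice, and they do not test that the cluster exists. Of 14780 genes tested, 945 (6.39%) were called higher and 686 (4.64%) lower in cluster 7. With 550 genes (3.72%) all 3 cluster 7 libraries lay above the other 21, and with 169 (1.14%) below them.

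Mouse 2 stood apart from mice 1 and 3 in these differences. Its cluster 7 library held the highest of the 3 levels for 523 of the 686 genes called lower (76.2%), and the lowest for 643 of the 945 called higher (68.0%). Among the 13149 genes not called, mouse 2 was highest for 31.6% and lowest for 29.0%. In mouse 2, 156 of 904 cluster 7 nuclei (17.3%) had more than 2 times the median UMIs of the cluster in that mouse, against 6.69% in mouse 1 and 6.58% in mouse 3. In the other inhibitory clusters that share was 5.42 to 6.87%.

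In those 156 nuclei of mouse 2 Calb2 stood at 1013 CPM, against 2687 in the remaining 748, and Zic1, described below, at 134 against 320 CPM. Genes called lower in the cluster went the other way. Kalrn stood at 731 CPM in the 156 nuclei and at 134 in the rest, and Meis1 at 189 against 38.02 CPM. The high nuclei of mice 1 and 3, 17 and 16 in number, had less Calb2 too, at 1088 and 1078 CPM against 3439 and 2509 in the rest. They held 157 of the 229 Kalrn UMIs of cluster 7 in mouse 1 and 102 of 154 in mouse 3, so that Kalrn stood at 78.1 and 44.1 CPM in the rest. Meis1 stood at 13.02 and 16.9 CPM in the rest of mice 1 and 3. Whether these nuclei are doublets was not tested. Without mouse 2 the counts were 890 higher and 752 lower, and without all nuclei above that limit, in every cluster and mouse, 1068 higher and 1032 lower, a setting chosen after the values were seen.

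**Figure D3:**
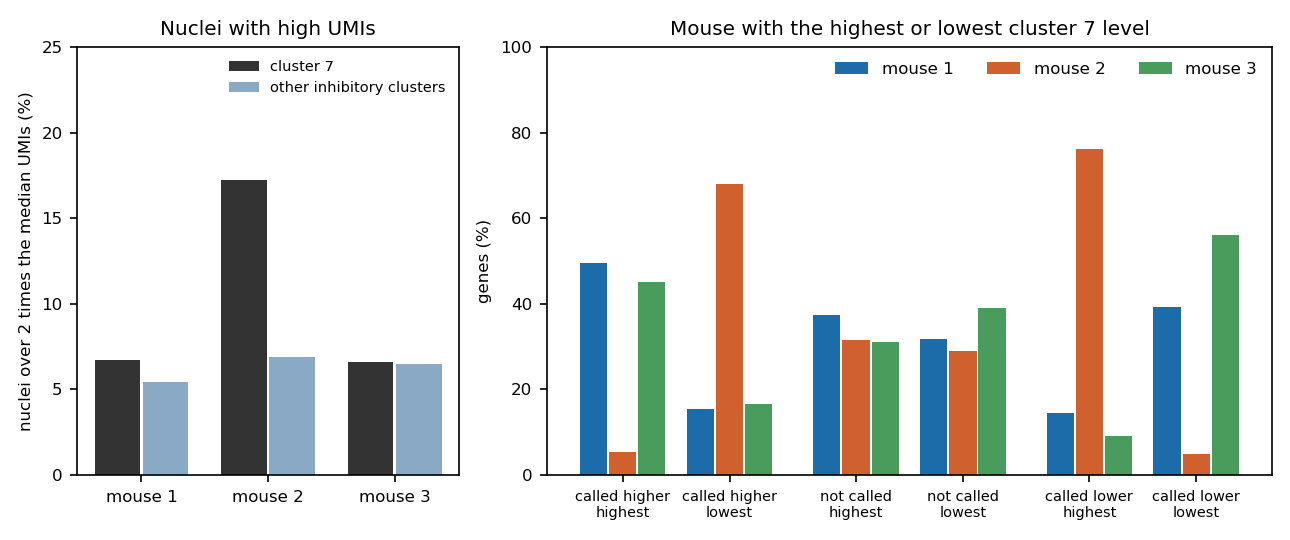
Left, share of nuclei with more than 2 times the median UMIs of their cluster and mouse, in cluster 7 and in the other inhibitory clusters together. Right, share of genes for which each mouse held the highest or the lowest of the 3 cluster 7 levels, by call. Mouse 2 was the highest for 76.2% of genes called lower and the lowest for 68.0% of genes called higher.

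The genes that led the higher side include genes of an ion channel subunit, a receptor, transcription factors and enzymes. They are the 15 with the largest fold change among genes of at least 10 CPM whose cluster 7 libraries all lay above the other 21, and Nppa and Pde5a were among them. Kcnmb2, an auxiliary subunit of the large-conductance calcium-activated potassium channel, stood at 1406, 1051 and 1434 CPM in mice 1, 2 and 3, against 1.22 to 167 in the other inhibitory libraries. Its log2FC was 6.38 (SE 0.20). After thinning, a Kcnmb2 UMI was found in 75.9% ± 3.62 of cluster 7 nuclei and in 9.26% ± 1.30 of those of cluster 8, the next cluster (SD over 3 mice). Outside the inhibitory set cluster 15 reached 899 CPM.

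Oprk1, the kappa opioid receptor, stood at 26.6, 26.8 and 24.3 CPM against 0 to 3.21. Apold1 stood at 197, 148 and 210 CPM against 0 to 11.04, with a log2FC of 5.70 (SE 0.22). For both of these genes the lowest cluster 7 library was several times the highest of the others. Aox3, an aldehyde oxidase, stood at 88.5, 55.2 and 106 CPM against 0 to 7.75. Sdc1, the cell-surface proteoglycan syndecan 1, and Prkcq, a protein kinase C, reached means of 26.2 and 28.04 CPM. Outside the inhibitory set Aox3 had 180 CPM in cluster 18, and Prkcq 281 CPM in cluster 19 and 122.9 CPM in cluster 16, all above cluster 7.

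Prl2c1, a member of the prolactin gene family, had the largest fitted fold change but stood at only 15.9, 9.04 and 10.7 CPM (82 UMIs), against 0 to 0.297. A fitted fold change against libraries near 0 depends on the small count that the model adds, and reads could be shared with other copies of this family, so that only its levels are given. Zic5, Zfp385c, Gm11549, Gm45768 and Gm15810 were also among the 15, with means of 12.5 to 60.4 CPM. Outside the inhibitory set Zic5 had 55.7 CPM in cluster 18, against 30.4 in cluster 7, Gm45768 had 27.1 CPM in cluster 16, against 12.5, and Gm11549 had 13.99 CPM in cluster 15, against 15.2. Gm15810 is an antisense transcript within Phactr1, and how far its reads are separate from those of Phactr1 was not tested.

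On the lower side 10 genes were chosen by the same rule. Kcnq3, a subunit of the potassium channel that carries the M current, stood at 32.8, 50.4 and 20.8 CPM, against 53.7 to 849 in the other inhibitory libraries, a log2FC of -2.86 (SE 0.30). Grm5, a metabotropic glutamate receptor, stood at 262, 504 and 235 CPM against 647 to 2936, with a log2FC of -2.20 (SE 0.20). Kalrn, a guanine nucleotide exchange factor of dendritic spines, stood at 203, 363 and 110 CPM against 377 to 1664, with a log2FC of -2.14 (SE 0.23). These levels rest in good part on the nuclei of high UMIs described above, in each mouse. Without such nuclei in any cluster the log2FCs were -3.72 for Kcnq3, -3.09 for Grm5 and -3.40 for Kalrn.

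In each of these genes the cluster 7 library of mouse 2 was the highest of the 3, and the same held for Cdh10, a cadherin, with 66.4, 212 and 70.1 CPM. Rimbp2, a presynaptic scaffold protein, Rerg, Pvt1, Gm3294 and Ltbp1 also had their highest cluster 7 level in mouse 2. Mme, the peptide-degrading enzyme neprilysin, did not, with 1.77, 1.66 and 0.716 CPM against 1.77 to 33.5.

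**Figure D4:**
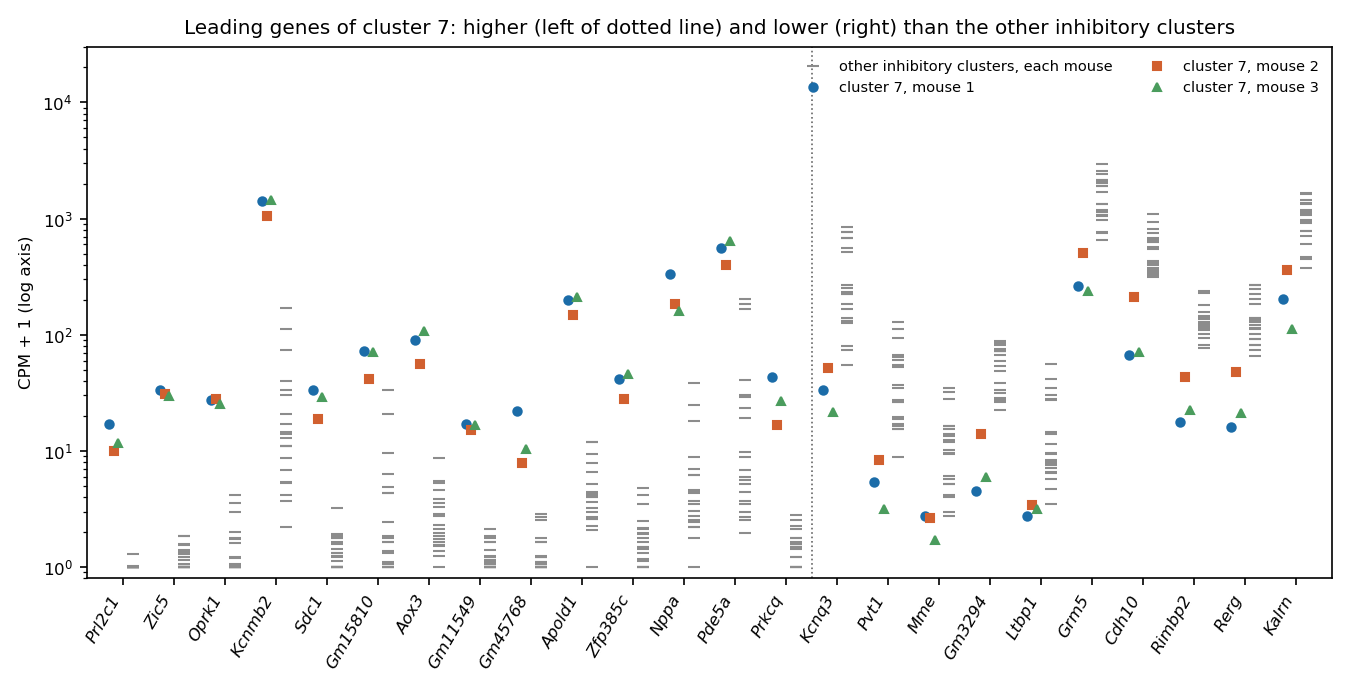
Levels (CPM + 1, log axis) of 14 of the 15 leading genes on the higher side and the 10 on the lower side, with coloured points for the cluster 7 library of each mouse and grey dashes for the 21 libraries of the other inhibitory clusters. The cluster 7 points lie wholly above the dashes on the left and wholly below them on the right, and the orange squares of mouse 2 are the highest of the 3 for 9 of the 10 genes on the right.

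Among transcription factors, Zic1, Zic2 and 3 nuclear factor I genes were higher in cluster 7 and Meis1 lower. Of 32 listed factors tested, 10 were called higher and 5 lower, against 6.39% and 4.64% of all genes, and the median log2FC was 0.35 against 0.02 over all genes. The same shares of all genes and the same median apply to the counts of each list below. The lists had been put together with earlier results of these data known. Zic2, a zinc finger factor of neural development, stood at 95.6, 78.8 and 75.1 CPM against 0.849 to 9.80, a log2FC of 4.80 (SE 0.16, edgeR adjusted p = 4.03e-17). Zic1 stood at 353, 249 and 330 CPM against 1.55 to 210, with a log2FC of 3.80 (SE 0.16). Zic4, picked after its values were seen and not on the list, stood at 104, 72.4 and 107 CPM and had a log2FC of 4.06 (SE 0.17). For Zic1 cluster 10 came next, with 175 CPM.

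A Zic1 UMI was found in 41.5% ± 4.33 of thinned cluster 7 nuclei and a Zic2 UMI in 14.4% ± 1.09. In glial nuclei the pooled shares were 5.77% and 0.825%. The nuclear factor I family was higher as well, with log2FCs of 3.36 (SE 0.34) for Nfia, 2.91 (SE 0.15) for Nfib and 2.998 (SE 0.17) for Nfix. Cluster 7 did not stand alone there. Nfia stood at 296, 200 and 225 CPM, and cluster 8 had a mean of 343 CPM.

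Etv1, Sp8, Sp9 and Dlx6, factors of the OB interneuron lineage, were called higher with log2FCs of 2.14, 1.51, 1.25 and 1.44. On the lower side Meis1, a homeodomain factor, stood at 48.7, 96.0 and 41.5 CPM against 89.5 to 387, a log2FC of -1.86 (SE 0.19), and of -3.13 without the nuclei of high UMIs. Tshz1 and Bcl11b were lower by log2FCs of -1.39 and -1.22, and Nr2f1, at -1.94, lost its call without mouse 1.

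Genes of natriuretic peptide and cGMP signalling were the next group. Of 21 tested, 9 were called higher, 2 of them the label genes Nppa and Pde5a, and 3 were called lower. The median log2FC was 0.49, and 0.12 over the 19 genes that are not label genes, against 0.02 over all genes. Among the phosphodiesterases, Pde1c stood at 1371, 910 and 1305 CPM, with a log2FC of 4.84 (SE 0.16), and cluster 6 came next with 996 CPM. Pde3a, which hydrolyses cyclic AMP and is inhibited by cGMP, stood at 116, 71.6 and 168 CPM, with a log2FC of 3.42 (SE 0.20), although cluster 10 had 588 CPM. Pde11a and Pde10a were higher by 2.61 (SE 0.28) and 1.19 (SE 0.18) on the log2 scale.

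Of the natriuretic peptide receptors, Npr1 and Npr2 were read beside Nppa. Npr1, the receptor of atrial natriuretic peptide, stood at 3.54, 1.85 and 2.86 CPM, levels that rest on few UMIs. Npr2 stood at 7.08, 12.6 and 12.9 CPM. Neither was called, with log2FCs of 0.49 (SE 0.46) and 0.05 (SE 0.21). The subunits of soluble guanylyl cyclase, which makes cGMP in response to nitric oxide, were not called either, at -0.05 (SE 0.16) for Gucy1a1 and -0.28 (SE 0.11) for Gucy1b1. Nos1, the neuronal nitric oxide synthase, was called higher, with 111, 82.5 and 67.3 CPM and a log2FC of 1.56 (SE 0.21). Nppc and Pde9a were called higher with all mice, and lost the call without mouse 2 and without mouse 3 respectively.

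The cGMP-dependent kinases were called lower. Prkg1 stood at 390, 808 and 282 CPM against 481 to 3022, a log2FC of -1.56 (SE 0.25), and Prkg2 at 10.6, 15.9 and 5.72 CPM, a log2FC of -1.89 (SE 0.30). In both, mouse 2 was the highest of the cluster 7 libraries. Pde1a, a calmodulin-dependent phosphodiesterase, was lower by -1.28 (SE 0.29).

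In the BMP pathway 6 of 26 tested genes were called higher, among them the label gene Grem1, and 1 was called lower, against 6.39% and 4.64% of all genes. The median log2FC was 0.19, and 0.15 without Grem1. Bmp7, a ligand, stood at 25.7, 17.4 and 27.9 CPM against 0 to 2.29 in the other inhibitory libraries, a log2FC of 5.06 (SE 0.28, edgeR adjusted p = 3.82e-13). All 3 cluster 7 libraries lay above the others. Cluster 11, outside the inhibitory set, had 176 CPM. Id2 and Id4, transcriptional inhibitors that BMP signals induce, were higher by 1.51 (SE 0.19) and 1.82 (SE 0.34). The receptors Bmpr1a and Bmpr2 were not called, at 0.38 (SE 0.09) and 0.15 (SE 0.11). Bmp4 and Bmp5 were called at under 6 CPM in every mouse, Bmp4 only with mouse 1 included and Bmp5 not with the other clusters summed, and Bmp6, the gene called lower, lost its call without mouse 1 and without mouse 2.

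**Figure D5:**
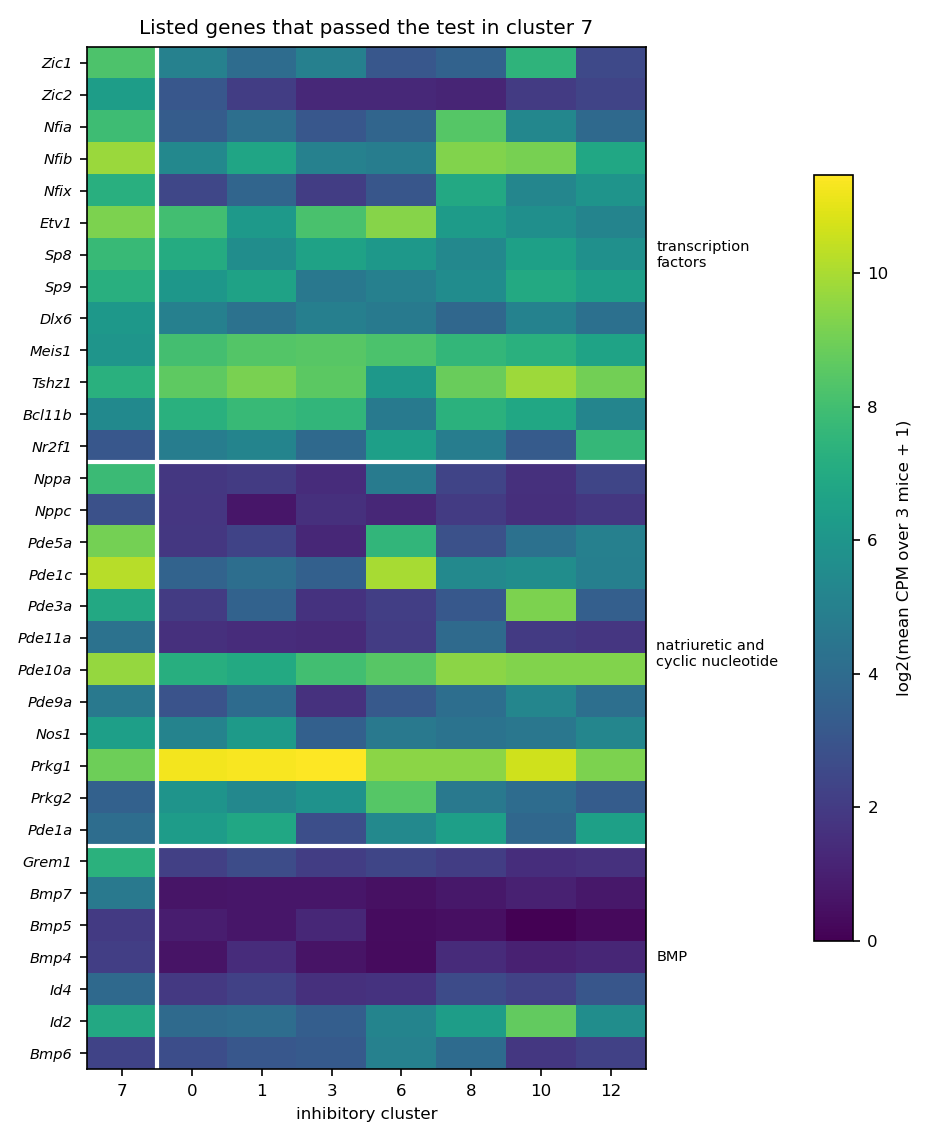
Mean level over 3 mice, as log2(CPM + 1), of listed transcription factors, natriuretic peptide and cyclic nucleotide genes and BMP genes that were called in cluster 7, in the 8 inhibitory clusters. Zic2, Grem1 and Bmp7 are bright in cluster 7 alone, whereas Pde1c is shared with cluster 6, Nfia and Nfib with cluster 8, and Pde3a is brighter in cluster 10 (588 CPM).

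Of 48 voltage-gated and TRPC channel genes tested, 6 were called higher and 18 lower, against 6.39% and 4.64% of all genes, a median log2FC of -0.52. Trpc5, a calcium-permeable cation channel, stood at 161, 140 and 230 CPM against 4.65 to 79.0, with a log2FC of 3.38 (SE 0.15), and Trpc6 was higher by 3.45 (SE 0.24). Kcnd3, an A-type potassium channel subunit, stood at 999, 703 and 925 CPM against 124 to 441, with a log2FC of 1.95 (SE 0.12). Hcn2, a hyperpolarization-activated cation channel subunit, was higher by 1.37 (SE 0.10). The lower side included, beside Kcnq3, the calcium channel subunits Cacna1e and Cacna1c, at -2.12 (SE 0.21) and -1.82 (SE 0.24), and the potassium channel subunit Kcnn2, at -1.87 (SE 0.18).

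Among 24 glutamate receptor genes 5 were called higher and 5 lower. Grin2d, an NMDA receptor subunit, stood at 117, 87.9 and 108 CPM against 2.20 to 31.4, with a log2FC of 3.21 (SE 0.15), and Grm2, a metabotropic receptor, was higher by 1.76 (SE 0.18). For both, no other inhibitory library reached the cluster 7 levels. Grin2c and Grm3 were higher by 3.83 (SE 0.22) and 3.45 (SE 0.16), but cluster 6 stood next for Grin2c with 67.6 CPM and cluster 8 for Grm3 with 295 CPM. On the lower side Grik3, a kainate receptor subunit, had a log2FC of -2.14 (SE 0.22), next to that of Grm5.

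Of 12 subunits of the GABA-A receptor 3 were called higher and 5 lower. Gabra3, Gabra5 and Gabrg3 were lower by -1.67 (SE 0.18), -1.53 (SE 0.24) and -1.58 (SE 0.18). None of the 8 genes of GABA synthesis and transport was called, with a median log2FC of -0.18.

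Of 36 receptors of peptides and modulators 6 were called higher and 5 lower, a median log2FC of -0.68. Beside Oprk1, Vipr1, a receptor of vasoactive intestinal peptide, stood at 33.6, 18.3 and 23.6 CPM against 0 to 11.7, with a log2FC of 4.18 (SE 0.38). Vipr2, the other receptor of that peptide, was lower by -1.32 (SE 0.35), a call lost without mouse 1. Cnr1, the cannabinoid receptor, was higher by 2.93 (SE 0.29), and cluster 8 stood at 63.6 CPM against 56.7, 49.6 and 58.7 CPM in cluster 7. Chrm2, a muscarinic acetylcholine receptor, stood at 120, 190 and 39.4 CPM, a log2FC of -2.24 (SE 0.27).

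Of 18 peptide genes 4 were called higher, the label gene Nppa included, and 1, Vgf, lower. Nxph1, which encodes the neurexin ligand neurexophilin 1, stood at 5961, 4197 and 5925 CPM, a log2FC of 3.17 (SE 0.11), and was found in 98.6% ± 0.253 of thinned cluster 7 nuclei. The thinned share was 95.9% ± 1.80 in cluster 6, where the level was 3762 CPM, 73.0% in cluster 12, 67.1% in cluster 10 and 12.3% in glial nuclei. Vip stood at 40.7, 76.0 and 26.5 CPM against 1.104 to 24.6, with a log2FC of 2.39 (SE 0.42). Crh, with 2.66, 8.12 and 7.16 CPM, lost its call without mouse 2. Nxph1, Vip and Crh are markers of the external plexiform layer interneurons, and cluster 15, outside the inhibitory set, held 5930.2 CPM of Nxph1, 2347 of Vip and 246 of Crh. Pvalb, the remaining marker of that list, stood at 0 to 1.77 CPM in cluster 7.

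Axon guidance and adhesion genes went both ways, with 12 of 69 called higher and 23 lower, a median log2FC of -0.50. Some of these calls were lost in an alternative, among them that of Nrp2, lost when any of the mice was left out. Plxna4, a semaphorin receptor, stood at 997, 725 and 1013 CPM against 5.26 to 413, with a log2FC of 4.22 (SE 0.10). Nrp1, its co-receptor, stood at 104, 70.1 and 110 CPM against 2.20 to 18.4, with a log2FC of 3.72 (SE 0.26). The cadherin Cdh6 was higher by 3.64 (SE 0.13), although 1 library of another cluster reached 569 CPM, above the 501 CPM of mouse 2. Among cadherins on the lower side, Cdh9 and Cdh13 had log2FCs of -1.99 (SE 0.43) and -1.95 (SE 0.17), and Cntn6, a contactin, -2.86 (SE 0.30).

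Genes of immature and mature neurons gave a mixed account. Of 15 immature neuron genes 4 were called higher and none lower, with a median log2FC of 0.17. Cd24a, a surface protein of neuroblasts, stood at 41.6, 44.9 and 50.1 CPM against 0.244 to 22.9, with a log2FC of 3.36 (SE 0.34), and Sox4 was higher by 1.43 (SE 0.15). Igfbpl1, at 2.60 (SE 0.21), was called as well. St8sia2, the last of the 4, lost its call without mouse 1, without mouse 2 and with the other clusters summed. Dcx, the classical neuroblast marker, was not called, with 378, 353 and 298 CPM and a log2FC of -0.11 (SE 0.16). Of 9 mature neuron genes none was called higher and 3 were called lower, among them the synaptic vesicle protein Syt1 with 1089.9, 1616 and 937 CPM, a log2FC of -1.42 (SE 0.13). Rbfox3 was lower by -1.35 (SE 0.17).

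Of 11 genes induced by neuronal activity none was called higher and 4 were called lower, with a median log2FC of -1.25. Arc stood at 1.77, 16.4 and 2.86 CPM and Npas4 at 2.66, 10.3 and 4.29 CPM, with log2FCs of -1.65 (SE 0.42) and -1.42 (SE 0.33). Egr1, at 13.3, 86.0 and 27.9 CPM, lost its call without mouse 1 and without mouse 3. Mouse 2 was again the highest in each of these genes, and Egr3, the last of the 4, lost its call without mouse 3.

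Of 16 calcium-binding proteins 4 were called higher, the label gene Calb2 included, and 1 lower, against 6.39% and 4.64% of all genes, and the median log2FC was -0.27. The others were Necab1, with 420, 336 and 439 CPM against 22.1 to 233 and a log2FC of 2.10 (SE 0.14), Vsnl1 at 1.28 (SE 0.15) and Scgn at 1.16 (SE 0.28). Scgn lost its call without mouse 3, with the other clusters summed and without clusters 10 and 12 in the reference, and Caln1, the gene called lower, lost it when any of the mice was left out. Of 6 dopamine genes only Slc6a3, the dopamine transporter, was called, at 8.85, 4.25 and 7.87 CPM, and it lost the call with the other clusters summed.

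Markers of other cell types were read in the same libraries. Of 5 astrocyte markers 3 were called higher, and their summed level was 461 to 630 CPM in cluster 7, against 12.7 to 116 in the other inhibitory libraries and a mean of 3274 CPM in cluster 9. Almost all of it was Slc1a3, a glutamate transporter, with 603, 433 and 514 CPM and a log2FC of 4.16 (SE 0.10). The astrocyte markers Gja1 and Aldh1l1 stood at 7.20 to 11.4 and 2.15 to 5.31 CPM and were not called, and Gfap and Aqp4 stood at 7.08 to 10.7 and 6.198 to 13.6 CPM, the latter called only with mice 2 and 3 both included. A Slc1a3 UMI was found in 46.0% of thinned cluster 7 nuclei, in 5.79% of those of the other inhibitory clusters and in 61.2% of glial nuclei.

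Of 4 oligodendrocyte markers 2, Mog and Mobp, were called higher at under 14 CPM, and both lost the call without mouse 1 and without mouse 2. The summed level of these markers was 79.4 to 122 CPM, against 17.3 to 109 in the other inhibitory libraries. No ensheathing glia, microglia or endothelial marker that could be tested was called. The part of glial RNA in the levels of cluster 7 was not tested.

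Cluster 8 is known by Calb1, the gene of calbindin, and Foxp2, and so by another calcium-binding protein than cluster 7. Against it, 722 of 14780 genes (4.88%) were called higher in cluster 7 and 1134 (7.67%) lower. Adora2a, the adenosine A2a receptor, stood at 14.2, 18.6 and 22.2 CPM in cluster 7 and at 0 to 0.286 in cluster 8. Prl2c1 had no UMI in the 13291119 UMIs of cluster 8. Zic5, Pde5a and Sdc1 were the other leading genes, with Pde5a at 4.58 to 7.95 CPM in cluster 8.

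On the lower side Chrna2, a nicotinic acetylcholine receptor subunit, had no UMI in cluster 7 and 3.15 to 19.4 CPM in cluster 8, at least 22.1-fold lower in cluster 7 against a floor of 3 counts over the group. Fam19a1, a secreted neuronal protein, stood at 5.31, 2.77 and 6.44 CPM in cluster 7 and at 157 to 2529 CPM in cluster 8, a log2FC of -8.40 (SE 0.76). Bmpr1b, a BMP receptor, and Gm28928 stood at 0 to 2.77 CPM in cluster 7, and Nov, a secreted matrix protein, at 0 to 0.369. The levels of Fam19a1, Bmpr1b, Gm28928 and Nov in cluster 8 differed more than 10-fold between mice. Of the 32 transcription factors, 9 were called higher and 6 lower in this comparison, and of the 26 BMP genes 5, the label gene Grem1 included, and 3. Of the 21 natriuretic peptide and cGMP genes 5 were called higher (3 without the label genes Nppa and Pde5a) and 2 lower. Of the 11 activity-induced genes none was called higher and 1 lower.

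By Pearson r across 14780 genes cluster 0 came first in likeness to cluster 7, with 0.904, and clusters 1, 8, 6, 10, 12 and 3 followed at 0.904 to 0.884. By Spearman rho cluster 8 came first, with 0.920, and cluster 0, with 0.917, came after clusters 8, 6, 1 and 10. These values are a description, and only cluster 3 stood clearly below the rest by both measures. Against cluster 0, 1336 genes (9.04%) were called higher and 994 (6.73%) lower. Kcnmb2 stood at 3.18 to 5.89 CPM in cluster 0, with a log2FC of 7.97 (SE 0.45). Oprk1 and Prl2c1 stood at 0 to 0.0445 and 0 to 0.0222 CPM there. Plxna4os3 was also among the 5 leading genes. It overlaps Plxna4 on the opposite strand, and how far its reads are separate from those of Plxna4 was not tested.

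Among the genes lower than in cluster 0 was Adamts19, a secreted protease, with 44.3, 110 and 23.6 CPM against 352 to 546, a log2FC of -3.02 (SE 0.55). Gcnt1, a glycosyltransferase, stood at 2.66, 13.8 and 9.30 CPM against 61.8 to 88.9. Dgat2l6, Adam33 and Iigp1 stood at under 3 CPM in cluster 7. Of the 32 transcription factors 9 were called higher and 7 lower, of the 21 natriuretic peptide and cGMP genes 8 (6 without the label genes Nppa and Pde5a) and 4, and of the 11 activity-induced genes none and 8. The 3 comparisons share the cluster 7 libraries, so that their counts are not independent of each other.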

How the data were processed

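UMI counts per gene and nucleus were deposited for each of 3 mice. Their file headers name Cell Ranger 3.0.2 as the counting software, and these deposited counts are not normalized. A deposited table lists the retained nuclei with their cluster, from the authors' clustering in Seurat after a minimum of 1000 genes and a maximum of 5% mitochondrial UMIs, and the deposited percent of mitochondrial UMIs of each nucleus. Cluster 7 was taken from that table, and the members, gene lists and comparisons were chosen with earlier results of these data known. The listed UMI and gene numbers matched the counts exactly in 100% of nuclei. No doublet caller was run. The sort gated out doublets by scatter, and nuclei above 2 times the median UMIs were left out as an added alternative.

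Counts were summed per mouse and cluster over the 8 inhibitory clusters, which gave 24 libraries. They were fitted in edgeR 4.0.16 (R 4.3.3) with filterByExpr, TMM and the quasi-likelihood test without covariates, with Benjamini-Hochberg adjustment over 14780 genes, and the scripts were tested on simulated data. The study itself compared single nuclei. A call needed an adjusted p below 0.05 and a change of more than 1 on the log2 scale. The standard error is the fold change divided by the square root of F. P-values set a difference against the spread between mice within clusters, pooled over the 8 clusters. They take the 24 libraries as independent, although those of a mouse are paired. The genes named are the 15 highest and 10 lowest of the main comparison, and 5 of each direction in the others, among called genes of at least 10 CPM whose libraries do not overlap, with up to 4 called members of each list by size. Other genes are named by their role in a list, or as said beside them, and some genes that the rule or a list would name are not reported here. Thinning used seed 1 in Python 3.11.15 with numpy 2.4.6.

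Libraries of a mouse are paired, since they come from 1 animal. Over 84 pairs of such libraries, deviations from the cluster means had an average correlation of 0.145 (58 pairs over 0.1), against -0.0710 over 168 pairs from different mice. Gene positions, looked up in GENCODE M21 (GRCm38), were found for 31011 of 31055 identifiers. Alternatives were a mouse block, DESeq2 1.42.0, library-size scaling, no filter, each mouse left out, nuclei with at least 1500 genes, the other clusters summed, and a reference without clusters 10 and 12.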

Additional observations from a re-analysis of the deposited data

How the results depend on the processing

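The number of genes called higher in cluster 7 against the other inhibitory clusters ranged from 816 to 890 with a mouse left out, and that of genes called lower from 522 to 752, the latter without mouse 2. Against cluster 8 the ranges were 565 to 651 and 886 to 1080, and against cluster 0 1110 to 1176 and 809 to 1007. With the mouse as a replicate block the counts were 961 higher and 713 lower, 764 and 1156 against cluster 8, and 1394 and 1033 against cluster 0, and of the genes named or listed Hcn4 alone lost its call. DESeq2 gave 958 and 721, library-size scaling 1071 and 570, no filter 1133 and 734, nuclei with at least 1500 genes 853 and 637, and a reference without clusters 10 and 12 1010 and 722. With the other clusters summed into 1 library per mouse, where the large clusters weigh most, 920 genes were called higher and 1090 lower, so that 45.8% of calls were higher against 57.9%. Without nuclei over 2 times the median UMIs 1032 genes were called lower and 1068 higher, and 95.2% of the 686 genes called lower were among them. The log2 fold change turned negative in the summed reference for Ntn1 (-1.91), Htr7 (-0.073), Calb1 (-1.31) and Foxp2 (-1.74), and for Foxp2, with a mouse left out, it ranged from -1.47 to 0.47, the lowest without mouse 2. The cause was not tested. The share of cluster 7 was 4.58% of all nuclei and 5.81% of inhibitory nuclei with at least 1500 genes. Shares of nuclei with a UMI depended on depth, and were 75.6% for Calb2, 19.4% for Grem1, 24.6% for Nppa and 58.5% for Pde5a after thinning, and 76.6%, 20.8%, 25.7% and 60.3% with at least 2 UMIs required. Genes under about 10 CPM rest on few UMIs in mice 1 and 3, whose cluster 7 libraries are the smallest.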
